A study of Mus musculus with 2 samples.

Results

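Nutrient and metal carriers of the solute carrier (Slc) superfamily were followed across the cell classes of the mouse yolk sac. Members were the gene rows whose symbol placed them in families 1, 2, 3, 5, 7, 16, 30, 38, 39 or 43, which gave 99 of 30970 gene rows. They comprised 38 rows of amino acid carrier families (1, 3, 7, 38 and 43), 23 of hexose and sodium-coupled families (2 and 5), 14 of the monocarboxylate family (16) and 24 of the zinc and metal families (30 and 39). Symbols alone decided which rows were members, but the set was chosen with earlier results of these data known.

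Yolk sacs of E8.75 mouse embryos had been dissociated, and the cells carried CellPlex oligonucleotide tags when they were pooled for droplet sequencing. Each animal had the genotype Ttr-Cre/+; R26lsl-rtTA-EGFP/+, so there was 1 genotype and no untreated or unmodified group. The Ttr promoter drives Cre in this line, and the Rosa26 allele carries a loxP-stop-loxP cassette before rtTA and EGFP. According to the design text the study set ciliated cell types of the yolk sac against the visceral endoderm lineage, and the carriers were compared here between cell classes of the same 3 tagged samples (numbered 1, 2 and 3 as labelled).

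Solute carriers move small molecules across membranes, either down a gradient or coupled to sodium, protons or an exchanged solute. Family 2 proteins pass hexoses by facilitated diffusion, family 16 proteins move lactate and related monocarboxylates with Basigin or Embigin as chaperone, and the light chains of family 7 reach the membrane bound to a family 3 heavy chain. Family 39 proteins bring zinc and other divalent metals into the cytosol and family 30 proteins take them out of it. The visceral endoderm faces the maternal side and absorbs nutrients for the embryo before the placenta is established.

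The tagged samples held 460, 651 and 706 cells with 22007477, 32890946 and 33114758 unique molecular identifiers (UMIs, counted transcript molecules) over genes, and no barcode occurred in more than 1 sample. Cells called by Xist made up 38.7% to 59.4% of those called by Xist or by Y-linked genes, so each sample held both kinds, while the design text names 3 embryos. How many embryos stood behind a sample was not settled, and p-values measure the spread between tagged samples. Cells of 500 or more genes and no more than 10% mitochondrial UMIs were put in classes by their share of marker UMIs. Endoderm cells had at least 0.3% from Ttr, Apob and Apom, erythroid cells at least 3% from 7 globins, endothelium at least 0.04% from Cdh5, Ctla2a and Plvap, and mesoderm at least 0.03% from Hand1, Vcan and Foxf1. This gave 559 endoderm, 629 erythroid, 115 endothelium and 199 mesoderm cells, while 188 cells met no gate and 50 that met more than 1 were dropped. Near the gates, 61, 210, 38 and 60 cells (endoderm, erythroid, endothelium, mesoderm) lay within a factor of 2 above the threshold and 21, 87, 15 and 37 within that factor under it. Class sums came to 32540566, 31813300, 4294641 and 7128089 UMIs in that order. Levels are given as UMIs per 1000000 gene UMIs of a class in a tagged sample (UPM), globins included in the total.

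Most markers outside the gates followed the class names, with Pdgfra an exception. Afp, Apoa1, Apoa4, Rbp4, Amn and Cubn summed to between 17813 and 23661 UPM in endoderm and to at most 572 elsewhere. Among erythroid markers, the haem synthesis gene Alas2 had 153, 204 and 202 UPM in erythroid cells and at most 17.6 elsewhere, and Klf1, an erythroid transcription factor gene, had 151, 145 and 148 and at most 14.7. Pecam1, Kdr, Tek, Emcn and Tie1 summed to 748 to 847 in endothelium. The mesoderm list of Pdgfra, Col1a1, Col3a1, Postn and Bmp4 summed to 378 to 693 in mesoderm and at most 56.0 elsewhere. Of this list, Pdgfra was not higher in mesoderm than in endoderm: it had 29.2, 18.2 and 19.5 in endoderm and 20.9, 19.1 and 10.6 in mesoderm. Markers of other cells were present too: macrophage and blood progenitor markers summed to 36.2 to 85.6 in endothelium (Kit 33.8, 30.9 and 40.8, with Ptprc at 0) and megakaryocyte markers to 41.6 to 61.8 there (Gp9 and Gp1bb at 0), and their part in the endothelium results was not tested. Contractile markers summed to 158 to 719 in mesoderm, led by Myl7. Trophoblast markers summed to 437 to 497 in mesoderm, nearly all from Hand1, a gene of its gate; Krt7, Gata3 and Elf5 lay between 2.12 and 11.7 and Tpbpa was at 0. Parietal endoderm markers summed to 542 to 624 in endoderm, 990 to 1257 in endothelium and 517 to 1074 in mesoderm, led by Sparc in each.

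Carrier transcripts together took the largest share of UMIs in endoderm among the 4 classes. The 99 members summed to 5682, 5692 and 5502 UPM in endoderm, 2210, 2364 and 2240 in mesoderm, 1294, 1346 and 1295 in endothelium and 1274, 1216 and 1230 in erythroid cells. The endoderm and mesoderm samples overlapped with no other class. Single genes weighed heavily in these sums: Slc2a3 averaged 2857 UPM in endoderm and Slc2a1 averaged 918 in mesoderm. Summed by family, families 2, 3, 7, 16, 30 and 39 were highest in endoderm, and families 1, 5, 38 and 43 were not. Of the members, 7 had no UMI in the 4 classes, 31 had 1 to 49 UMIs and 61 had 50 or more. Among these 61, 24 were highest in endoderm in all 3 samples, 8 in erythroid cells, 8 in mesoderm and 6 in endothelium. The remaining 15 had no class that was highest in each sample. The share of all genes highest in each class was not computed, so these counts have no background beside them.

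Differences were tested with edgeR's quasi-likelihood test on UMI sums per class and tagged sample, 3 against 3, two-sided, with Benjamini-Hochberg adjustment over all genes tested and a threshold of 0.05. A low-count filter left 59 members in at least 1 comparison and 37 in all 6, so the counts below cover members with enough UMIs in at least 1 of the classes compared. Endoderm against erythroid cells had 52 of 57 members called, 34 higher and 18 lower in endoderm, where 77.9% of all tested genes were called, 41.8% higher and 36.1% lower. Endoderm against endothelium had 31 higher and 15 lower of 53, where 60.5% of all genes were called (31.9% higher and 28.6% lower). Endoderm against mesoderm had 29 higher and 12 lower of 54, where 63.8% of all genes were called (33.2% and 30.6%). The share of tested members called was above that of all genes in all 3 comparisons, and the calls leaned to endoderm. Members tested had median log2 differences of 1.13, 1.11 and 0.76 in these comparisons, beside 0.05, 0.05 and 0.02 over all genes.

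The comparisons without endoderm gave other splits. Erythroid cells against endothelium had 13 members higher and 19 lower of 44 (66.0% of all genes called, 31.9% higher and 34.2% lower), and 10 higher and 23 lower when counts were scaled by library size alone. Erythroid cells against mesoderm had 14 higher and 18 lower of 46 (70.8% of all genes called, 33.2% and 37.6%), and 11 higher and 25 lower by library size. Mesoderm against endothelium had 7 higher and 13 lower of 41 (35.4% of all genes called, 15.9% and 19.5%), and 7 higher and 8 lower without tagged sample 3. In these comparisons the median log2 differences of members were -0.35, -0.16 and -0.19, beside 0.03, -0.03 and 0.01 over all genes. These medians were not stable: with doubled gate thresholds the first turned to 0.07 and the other two to -0.00. Library size scaling gave -0.67, -0.57 and -0.06. The median of erythroid cells against mesoderm was -0.04 without tagged sample 1 and likewise without tagged sample 2, and that of mesoderm against endothelium was -0.10 without tagged sample 3.

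**Figure D1:**
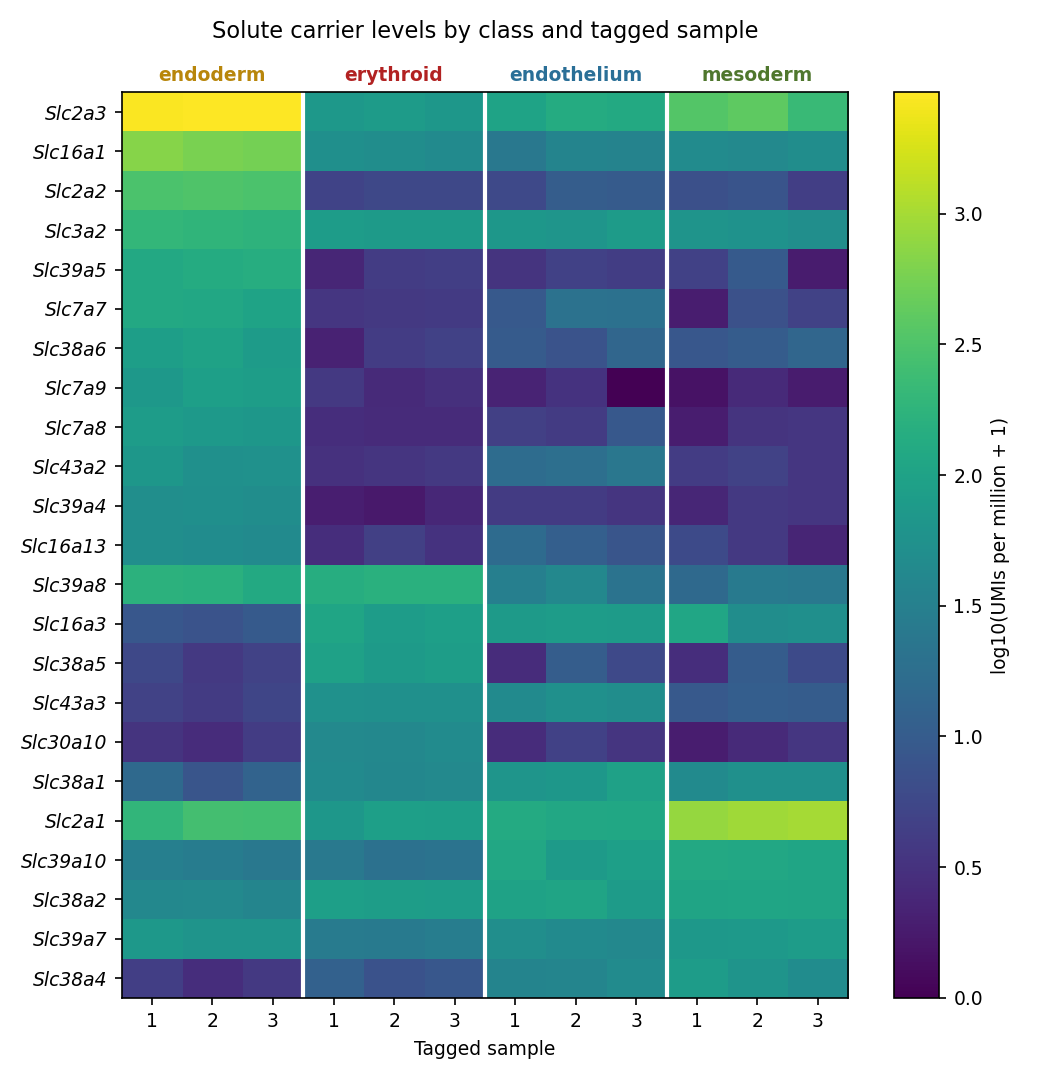
Levels of the 23 carriers named by a rule of level and difference, as log10(UPM + 1), with the 3 tagged samples of each class side by side. Genes from Slc2a3 to Slc16a13 are brightest in endoderm, Slc16a3, Slc43a3 and Slc38a1 are darkest there, and Slc2a1 is brightest in mesoderm.

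Among the hexose carriers, Slc2a3 and Slc2a2 were high in endoderm and Slc2a1 in mesoderm. Slc2a3, a high-affinity glucose carrier, stood at 2815, 2908 and 2848 UPM in endoderm, 343, 399 and 225 in mesoderm, 102, 134 and 126 in endothelium and 68.3, 77.6 and 67.4 in erythroid cells. No 2 classes overlapped, and endoderm exceeded mesoderm by 3.39 ± 0.17 on the log2 scale (SE; edgeR adjusted p = 2.11e-08), endothelium by 4.70 ± 0.10 (2.03e-12) and erythroid cells by 5.11 ± 0.07 (1.01e-12). The lower level in erythroid cells than in endothelium passed the threshold (log2 difference -0.43, edgeR adjusted p = 0.00501), but was lost without tagged sample 3 (-0.38, adjusted p = 0.0756) and turned to 0.12 (adjusted p = 0.738) with doubled gate thresholds.

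The mesoderm level of Slc2a3 moved with the cells counted. Leaving out the 20 mesoderm cells with at least 0.005% of UMIs from Krt7, Gata3, Elf5 and Tpbpa, an alternative chosen after seeing the data, gave 310, 201 and 158 UPM. Mesoderm then exceeded endothelium by 0.78 in place of 1.31 on the log2 scale. Both mesoderm differences of Slc2a3 named here kept their direction.

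Slc2a2, a low-affinity glucose carrier typical of liver and absorptive epithelia, had 303, 319 and 303 UPM in endoderm. It reached at most 9.56 in any sample of the other classes, and endoderm exceeded erythroid cells by 5.86 ± 0.09, endothelium by 5.49 ± 0.17 and mesoderm by 6.05 ± 0.16 (log2 ± SE; edgeR adjusted p at most 2.02e-10). No difference among the other classes passed the threshold (edgeR adjusted p 0.240, 0.679 and 0.291).

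Slc2a1, the glucose carrier found in most cell types and in blood-tissue barriers, had another order. It stood at 815, 934 and 1005 UPM in mesoderm, 188, 266 and 259 in endoderm, 130, 118 and 114 in endothelium and 67.6, 87.9 and 86.5 in erythroid cells. Mesoderm samples lay above all others, by 1.70 over endoderm (SE 0.13; endoderm minus mesoderm -1.70, edgeR adjusted p = 7.06e-07) and by 2.80 ± 0.10 over endothelium (1.17e-09). The difference of -0.25 between erythroid cells and endothelium missed the threshold (edgeR adjusted p = 0.0937) and passed it with the tagged sample as a replicate block (-0.27, adjusted p = 0.0378). Without the 20 cells with trophoblast markers mesoderm had 921, 917 and 1016.

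**Figure D2:**
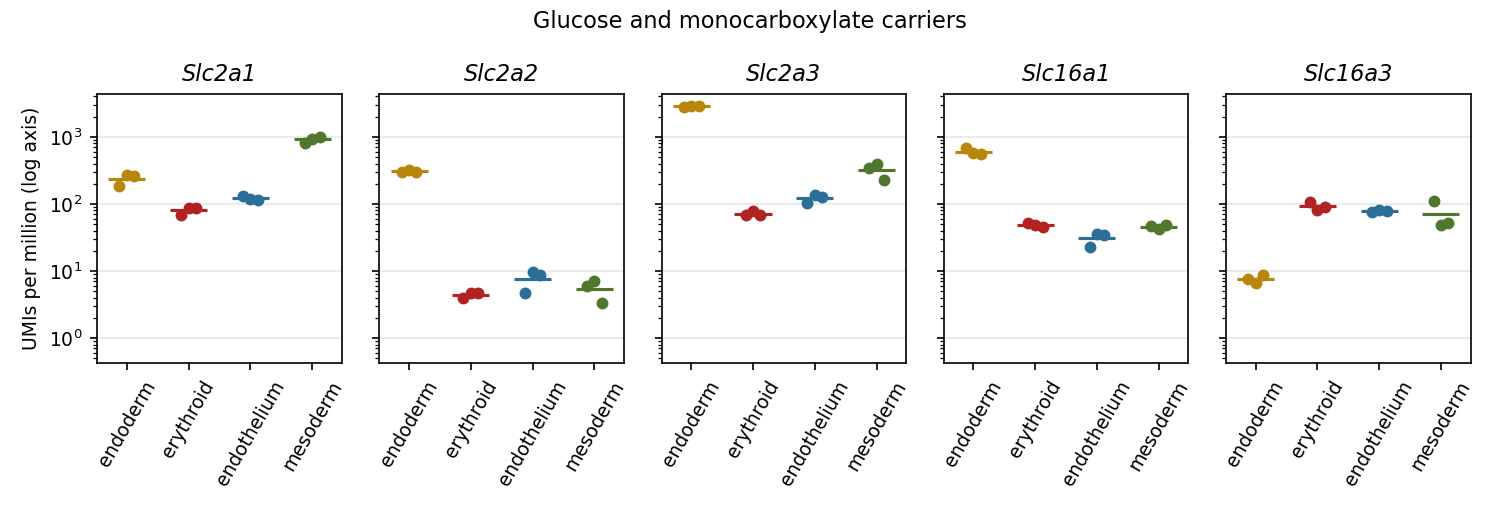
UPM (log axis) of 3 glucose carriers and 2 lactate carriers by class, with 1 point per tagged sample and a bar at the mean of 3. Slc2a3, Slc2a2 and Slc16a1 are highest in endoderm, Slc2a1 is highest in mesoderm, and the endoderm points of Slc16a3 (6.58 to 8.61) lie under all others.

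The remaining members of families 2 and 5 were rarer. Slc5a11, a sodium-coupled inositol carrier, averaged 6.36 ± 1.19 UPM in endoderm (SD, n = 3 tagged samples, here and below for means) and at most 0.412 elsewhere. Slc5a3, another inositol carrier, averaged 28.2 ± 11.2 in endothelium and 14.3 ± 3.05 in mesoderm, against 4.17 ± 0.663 in endoderm. Slc5a6, which carries biotin and pantothenate, averaged 15.9 ± 1.75 in mesoderm and 13.9 ± 1.15 in endoderm, with no call between them, and was lower in endothelium and erythroid cells (3.92 ± 0.639 and 3.81 ± 0.354). Of the 12 family 2 rows, Slc2a1, Slc2a2, Slc2a3 and Slc2a8 reached 50 UMIs, and the other 8 did not.

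Both lactate carriers differed between endoderm and the other classes, in opposite directions. Slc16a1, a proton-coupled lactate and pyruvate carrier, had 677, 581 and 551 UPM in endoderm, 51.9, 48.6 and 45.0 in erythroid cells, 46.4, 42.0 and 49.2 in mesoderm and 23.2, 35.3 and 34.4 in endothelium. Endoderm lay apart, by 3.43 ± 0.08 over erythroid cells, 3.96 ± 0.10 over mesoderm and 4.43 ± 0.14 over endothelium (log2 ± SE; edgeR adjusted p at most 2.02e-10). Slc16a3, the lactate carrier typical of glycolytic cells, had 7.72, 6.58 and 8.61 in endoderm, against 107, 81.9 and 89.3 in erythroid cells, 76.6, 81.6 and 77.6 in endothelium and 112, 48.2 and 51.7 in mesoderm.

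No endoderm sample reached the Slc16a3 level of any other class, with log2 differences of -3.81 ± 0.12, -3.25 ± 0.15 and -2.97 ± 0.30 against erythroid cells, endothelium and mesoderm (SE; edgeR adjusted p at most 5.4e-06). Within mesoderm, tagged sample 1 was higher than samples 2 and 3 and overlapped with erythroid cells. The call of erythroid cells over mesoderm (0.80, edgeR adjusted p = 0.0105) was lost without tagged sample 3 (0.64, adjusted p = 0.0989) and in DESeq2 (0.81, adjusted p = 0.0713).

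The chaperones of these carriers differed from each other. Embigin (Emb) had 3311, 2998 and 2940 UPM in endoderm and between 61.2 and 137 elsewhere, and endoderm exceeded mesoderm by 5.32 ± 0.12 (log2 ± SE; edgeR adjusted p = 1.55e-10). Basigin (Bsg) lay between 447 and 762 in every class. Of 15 glycolysis genes, endoderm had 2 higher and 11 lower than erythroid cells. It had 3 higher and 6 lower than endothelium, and 3 higher and 7 lower than mesoderm. In the same order, 41.8%, 31.9% and 33.2% of all genes were higher in endoderm and 36.1%, 28.6% and 30.6% lower. Ldha, the lactate dehydrogenase subunit of glycolytic tissue, had 1145, 1231 and 1260 in endoderm and 1916, 1728 and 1789 in erythroid cells (log2 difference -0.79, edgeR adjusted p = 1.06e-07). Its partner Ldhb was 3.04 higher in endoderm than in erythroid cells (6.09e-08), at means of 25.2 and 2.62 UPM. Ldhb averaged 30.4 in mesoderm and 5.98 in endothelium. Ldha averaged 1212 in endoderm, 1183 in endothelium and 1130 in mesoderm.

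Among further family 16 members, Slc16a13 and Slc16a9 stood apart in endoderm, while Slc16a6 and Slc16a10 were high in erythroid cells as well. Slc16a13 had 50.3, 47.8 and 44.9 UPM in endoderm and at most 15.4 elsewhere, with endoderm higher by 3.95 ± 0.16 than erythroid cells, by 2.19 ± 0.20 than endothelium and by 4.24 ± 0.25 than mesoderm (log2 ± SE; edgeR adjusted p at most 9.22e-07). Slc16a9 averaged 33.6 ± 3.44 in endoderm and at most 1.78 elsewhere. Slc16a6 and the aromatic amino acid carrier Slc16a10 averaged 39.1 ± 0.990 and 24.9 ± 2.91 in endoderm, 31.2 ± 6.22 and 25.5 ± 0.742 in erythroid cells and 2.03 to 8.48 in the other classes. Between endoderm and erythroid cells Slc16a10 passed the threshold by a small margin (-0.26, edgeR adjusted p = 0.0319) and Slc16a6 did not.

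**Figure D3:**
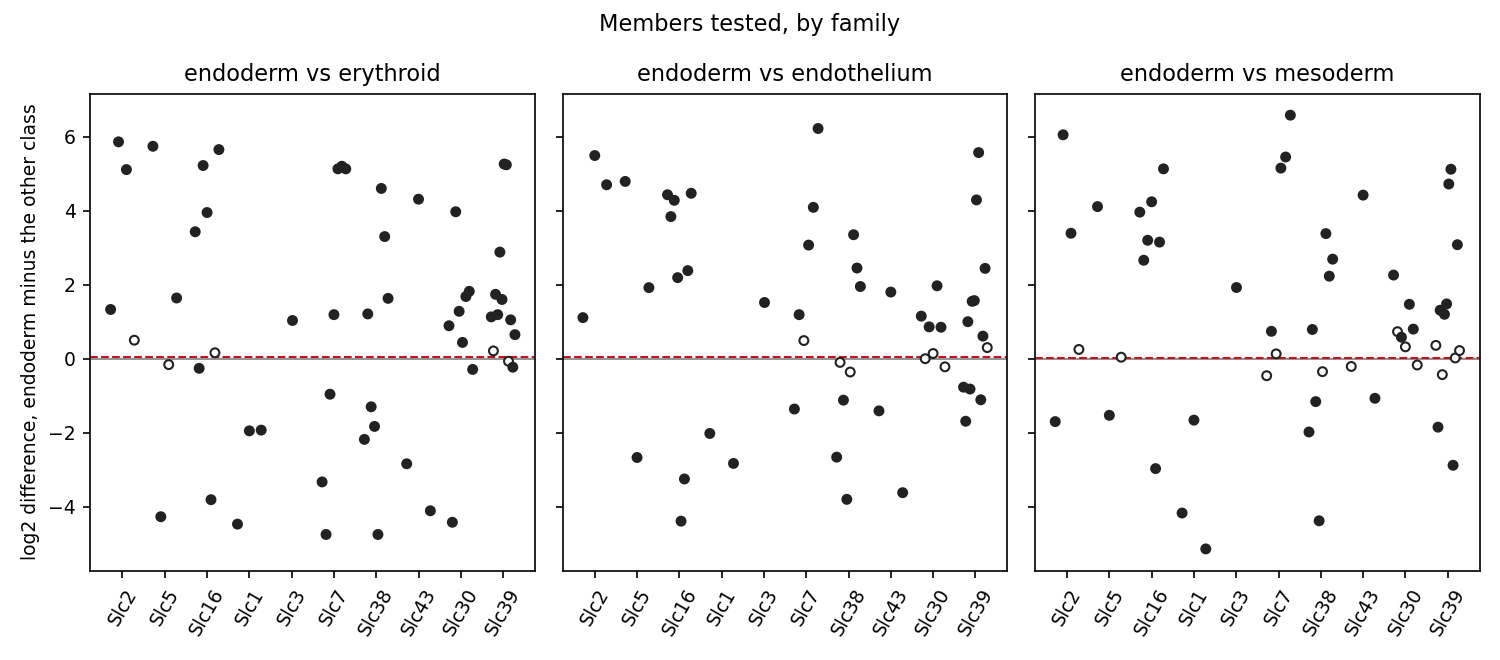
log2 difference of each tested member between endoderm and erythroid cells, endothelium or mesoderm, by family, with 1 point per gene, filled where the edgeR adjusted p is under 0.05. The dashed line is the median of all genes tested (0.05, 0.05 and 0.02). Family 1 points lie under 0 in each panel, and most points of families 16, 30 and 39 lie above it.

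The amino acid carrier families split between classes. Grouped by family number, they include Slc43a3, a purine nucleobase carrier, which was lower in endoderm in each comparison below. Against erythroid cells, 10 of the 22 tested were higher and 12 lower in endoderm, with a median log2 difference of -1.13, and against mesoderm 10 of 21 were higher and 7 lower, with a median of 0.13. Against endothelium 9 of 20 were higher and 8 lower, with a median of 0.20. The shares of all genes higher and lower were 41.8% and 36.1% against erythroid cells, 33.2% and 30.6% against mesoderm, and 31.9% and 28.6% against endothelium. The heavy chain Slc3a2 and the light chains Slc7a7, Slc7a8 and Slc7a9 were among those higher in endoderm, and the tested members of family 1 among those lower.

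Slc3a2, the heavy chain that carries several family 7 light chains to the membrane, had 195, 185 and 173 UPM in endoderm, 82.2, 75.1 and 75.9 in erythroid cells, 66.5, 64.0 and 78.4 in endothelium and 60.9, 56.8 and 50.9 in mesoderm. Endoderm was apart from the rest, by 1.04 ± 0.07 over erythroid cells and 1.95 ± 0.10 over mesoderm (log2 ± SE; edgeR adjusted p at most 3.79e-08). Its lower level in mesoderm than in endothelium (-0.43, edgeR adjusted p = 0.0341) was lost without tagged sample 2 (-0.50, adjusted p = 0.0878), without tagged sample 3 (-0.25, adjusted p = 0.343) and in DESeq2 (-0.42, adjusted p = 0.113).

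Its light chains went separate ways. Slc7a7, which exchanges cationic for neutral amino acids, had 122, 120 and 100 UPM in endoderm, 8.31, 19.1 and 18.4 in endothelium, 0.910, 6.22 and 3.82 in mesoderm and 2.55, 2.71 and 2.92 in erythroid cells. Slc7a8, a neutral amino acid exchanger of absorptive epithelia, had 80.3, 72.8 and 66.7 in endoderm and at most 8.00 elsewhere. Endoderm did not overlap with another class for either gene, and the log2 differences ran from 3.07 ± 0.20 (Slc7a7 against endothelium) to 5.45 ± 0.21 (Slc7a8 against mesoderm; SE, edgeR adjusted p at most 3.58e-08). Slc7a5, the large neutral amino acid exchanger of growing cells, was instead highest in erythroid cells (22.6 ± 3.97, against 13.2 ± 2.18 in endoderm, 9.38 ± 2.41 in mesoderm and 6.18 ± 2.83 in endothelium). The difference of Slc7a7 between mesoderm and endothelium (-2.09, edgeR adjusted p = 0.00453) was lost without tagged sample 3 (-1.93, adjusted p = 0.0712).

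Slc7a9, the light chain of the renal and intestinal cystine carrier, was found in endoderm while its heavy chain was almost absent. It had 69.2, 88.3 and 84.9 UPM in endoderm and at most 2.78 in any other sample, with 390 of 511 endoderm cells (76.3%, 95% exact binomial interval 72.4 to 79.9) and 28 of 616 erythroid cells (4.55%, 3.04 to 6.50) holding a UMI after thinning each cell to 20000 UMIs. Thinning left out 48 endoderm and 13 erythroid cells of lower depth, and the unthinned shares were 90.9% and 8.90% at median depths of 56338 and 47771 UMIs. Slc3a1, the heavy chain known to pair with Slc7a9, had 4 UMIs in the 4 classes together and 0 in endoderm, which allows up to 0.0922 UPM there. Intervals and floors cover counting error only.

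Slc7a1, a cationic amino acid carrier, was highest in erythroid cells at 34.0 ± 5.89 UPM, against 4.19 ± 2.40 in endoderm (log2 difference -3.33, edgeR adjusted p = 4.66e-07). Its mesoderm level of 6.48 ± 2.25 was below the 11.4 ± 2.63 of endothelium only with the replicate block (-0.93, adjusted p = 0.0437; -0.89 and 0.0559 without it). In family 1, Slc1a5, a neutral amino acid exchanger that accepts glutamine, averaged 31.8 ± 5.71 in endothelium and 4.17 ± 1.70 in endoderm. The glutamate carriers Slc1a3 and Slc1a6 averaged 25.7 ± 8.87 and 13.8 ± 1.65 in mesoderm and 1.16 ± 0.348 and 0.355 ± 0.255 in endoderm. Slc1a3 was at 23.6 ± 4.03 in erythroid cells as well, while Slc1a6 averaged at most 0.757 in each of the other classes. All 3 family 1 members tested against erythroid cells and all 3 tested against mesoderm were lower in endoderm.

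Family 38 held carriers of each class. Slc38a6 had 86.2, 97.7 and 77.8 UPM in endoderm and at most 12.8 elsewhere. Slc38a5, a sodium-coupled carrier of glutamine and other neutral amino acids, had 95.7, 76.6 and 84.4 in erythroid cells and at most 9.56 elsewhere. Neither overlapped with another class, and erythroid cells exceeded endoderm in Slc38a5 by 4.75 on the log2 scale (SE 0.14; endoderm minus erythroid -4.75, edgeR adjusted p = 8.06e-11), endothelium by 4.35 ± 0.25 and mesoderm by 4.33 ± 0.24. A UMI of Slc38a5 was found in 479 of 616 thinned erythroid cells (77.8%, 74.3 to 81.0) and 29 of 511 endoderm cells (5.68%, 3.83 to 8.05), at 94.0% and 11.4% without thinning. The endoderm share is read as background and not as expression: Slc38a5 averaged 3.76 UPM in endoderm and 85.5 in erythroid cells, beside 7.03 and 186 for the erythroid gene Alas2.

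Slc38a4, an imprinted neutral amino acid carrier, had 81.9, 60.7 and 47.9 UPM in mesoderm, 35.6, 36.8 and 46.4 in endothelium, 10.9, 6.35 and 7.63 in erythroid cells and 3.36, 1.87 and 2.72 in endoderm. Mesoderm and endothelium lay close (0.57 ± 0.21, edgeR adjusted p = 0.0521; 0.56 and 0.0286 with the replicate block), and endoderm was lower than mesoderm by 4.38 (SE 0.25; -4.38, adjusted p = 5.04e-08). Slc38a1 and Slc38a2, glutamine carriers of many tissues, were lowest in endoderm at 11.1 ± 3.51 and 39.6 ± 3.03. In the other classes they averaged 42.1 to 75.1 and 84.5 to 105. Slc38a1 was highest in endothelium in all 3 samples and Slc38a2 in mesoderm. The calls of Slc38a1 as lower than in endothelium were lost without tagged sample 3, both for erythroid cells (-0.34, edgeR adjusted p = 0.0844) and for mesoderm (-0.50, adjusted p = 0.0860).

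Family 43 divided by member. Slc43a2, a large neutral amino acid carrier, had 67.4, 53.8 and 56.0 UPM in endoderm, a mean of 18.7 ± 3.31 in endothelium and at most 3.89 in erythroid cells and mesoderm. Slc43a3, a purine nucleobase carrier, had 55.4, 54.0 and 54.0 in erythroid cells, 45.1, 53.7 and 49.6 in endothelium, 8.19, 9.73 and 9.33 in mesoderm and 3.81, 2.98 and 4.36 in endoderm. Endoderm thus stood highest for Slc43a2 and lowest for Slc43a3, without overlap (endoderm minus erythroid 4.31 ± 0.14 and -4.11 ± 0.12, edgeR adjusted p at most 1.32e-10). Slc43a1, a further large neutral amino acid carrier, averaged 27.9 ± 2.26 in erythroid cells and 4.56 ± 1.84 in endoderm. The small difference of Slc43a3 between erythroid cells and endothelium (0.45, edgeR adjusted p = 0.00216) was lost with library size scaling (0.14, adjusted p = 0.295).

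Genes of amino acid supply outside the carrier families were counted beside these. Of the 10 genes of an amino acid response and synthesis list, 9 were tested in each comparison with endoderm. Endoderm had 4 higher and 4 lower than erythroid cells, 5 higher and 2 lower than endothelium and 6 higher and 1 lower than mesoderm. Over all genes, 41.8%, 31.9% and 33.2% were higher in endoderm in these comparisons and 36.1%, 28.6% and 30.6% lower. Asparagine synthetase (Asns) had 158, 208 and 191 UPM in erythroid cells and 22.4, 17.1 and 20.0 in endoderm (endoderm minus erythroid -3.46, edgeR adjusted p = 3.16e-10). The serine synthesis gene Phgdh had 381, 432 and 424 in endoderm and 125, 121 and 115 in erythroid cells (1.57, adjusted p = 3.04e-09). Of 18 other amino acid, peptide and vitamin carriers, 14 were tested against erythroid cells, with 7 higher and 4 lower in endoderm. Against endothelium 10 were tested, with 5 higher and 3 lower, and against mesoderm 11, with 4 higher and 4 lower.

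**Figure D4:**
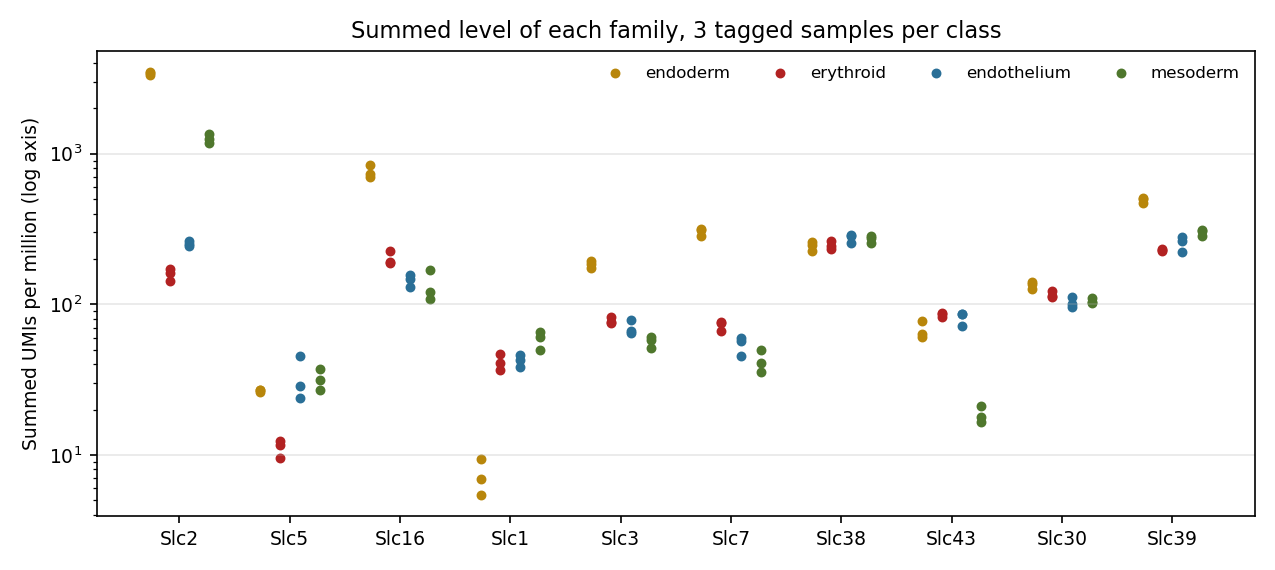
Summed UPM of the members of each family (log axis), with 3 tagged samples per class. Families 2, 3, 7, 16, 30 and 39 are highest in endoderm in each sample. Family 1 is lowest there (5.45 to 9.40), and family 38 lies between 225 and 288 in every class.

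Among the zinc and metal carriers, more were higher than lower in endoderm. Against erythroid cells 15 of 20 tested were higher and 3 lower, against endothelium 11 of 19 and 4, and against mesoderm 10 of 19 and 2, with median log2 differences of 1.16, 0.85 and 0.73. Over all genes, 41.8%, 31.9% and 33.2% were higher in these comparisons and 36.1%, 28.6% and 30.6% lower. Of the 20 with 50 or more UMIs, 8 were highest in endoderm in all 3 samples, a count for which no share of all genes was computed.

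Slc39a4 and Slc39a5, zinc importers of absorptive epithelia, marked endoderm. Slc39a5 had 121, 134 and 142 UPM in endoderm and at most 8.56 elsewhere, and Slc39a4 had 49.9, 51.7 and 49.6 and at most 2.97. Endoderm did not overlap with another class, and exceeded the others in Slc39a5 by 5.12 to 5.57 and in Slc39a4 by 4.29 to 5.26 on the log2 scale (edgeR adjusted p at most 5.68e-08). A UMI of Slc39a5 was found in 471 of 511 thinned endoderm cells (92.2%, 89.5 to 94.3) and 27 of 616 erythroid cells (4.38%, 2.91 to 6.31), and without thinning in 95.5% and 13.0%.

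Slc39a8, an importer of zinc, manganese and iron, was shared by endoderm and erythroid cells. It had 167, 158 and 128 UPM in endoderm, 145, 157 and 156 in erythroid cells, 30.3, 40.4 and 20.0 in endothelium and 14.1, 24.9 and 23.7 in mesoderm. The first 2 classes overlapped, and both lay above endothelium and mesoderm, by 2.44 ± 0.18 and 3.08 ± 0.17 for endoderm and 2.64 ± 0.15 and 3.27 ± 0.14 for erythroid cells (log2 ± SE; edgeR adjusted p at most 9.79e-08). The difference of -0.23 between endoderm and erythroid cells (edgeR adjusted p = 0.0381) was lost with library size scaling (-0.01, adjusted p = 0.887), without tagged sample 2 (-0.25, adjusted p = 0.0937) and without tagged sample 3 (-0.10, adjusted p = 0.358). Mesoderm was lower than endothelium only with the replicate block (-0.66, adjusted p = 0.0304; -0.65 and 0.0814 without it).

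Slc39a10 and Slc39a6 were higher in mesoderm than in endoderm. Slc39a10, a zinc importer of the plasma membrane, had 122, 117 and 107 UPM in mesoderm, 119, 76.5 and 88.8 in endothelium, 30.4, 27.5 and 23.4 in endoderm and 24.1, 18.4 and 19.8 in erythroid cells. Mesoderm and endothelium overlapped, and endoderm was lower than mesoderm by 1.85 (SE 0.12; -1.85, edgeR adjusted p = 1.06e-07). Its close relative Slc39a6 averaged 31.8 ± 4.52 in mesoderm and at most 8.58 elsewhere (endoderm minus mesoderm -2.88, edgeR adjusted p = 8.75e-08). Slc39a7, which releases zinc from the endoplasmic reticulum, had 70.1, 61.8 and 60.9 in endoderm and 70.0, 72.4 and 81.8 in mesoderm (0.02 ± 0.10, edgeR adjusted p = 0.859), against 51.0, 44.1 and 40.8 in endothelium and 26.6, 24.6 and 28.7 in erythroid cells. Its call of mesoderm over endothelium (0.59, edgeR adjusted p = 0.00520) was lost without tagged sample 2 (0.58, adjusted p = 0.0517) and without tagged sample 3 (0.47, adjusted p = 0.0915).

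Among the exporters of family 30, Slc30a10, a manganese exporter, was an erythroid transcript. It had 41.7, 40.7 and 46.5 UPM there and at most 3.68 in any other sample. Erythroid cells exceeded endoderm by 4.42 (SE 0.16; endoderm minus erythroid -4.42, edgeR adjusted p = 4.15e-10), endothelium by 4.37 ± 0.24 and mesoderm by 5.08 ± 0.22. Slc30a1, the zinc exporter of the plasma membrane, averaged 25.6 ± 3.04 in endoderm, above erythroid cells by 0.89, endothelium by 1.15 and mesoderm by 2.26 on the log2 scale (edgeR adjusted p at most 0.000213). Slc30a9 varied little, from 32.9 ± 0.899 in endoderm to 44.0 ± 3.92 in mesoderm.

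Metal handling genes outside both families were counted as well. Of 11, endoderm had 8 higher and 2 lower than erythroid cells, 7 higher and 2 lower than endothelium and 9 higher and 1 lower than mesoderm. In the same order, 41.8%, 31.9% and 33.2% of all genes were higher in endoderm and 36.1%, 28.6% and 30.6% lower. Metallothionein Mt1, a zinc-binding protein gene, had 1597, 2214 and 2918 UPM in endoderm and 267, 179 and 224 in erythroid cells (log2 difference 3.13, edgeR adjusted p = 4.35e-08). Tfrc, the transferrin receptor, had 174, 258 and 225 in erythroid cells and 28.2, 24.3 and 29.2 in endoderm (-3.24, adjusted p = 1.7e-09).

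Transcripts that mark endoderm were also counted at a low level in the other classes, and carriers were read against that level. The 9 endoderm genes of the gate and of the marker list stood in erythroid cells at 1.44% to 2.34% of their endoderm level. The range was 1.83% to 2.46% in endothelium and 1.66% to 2.70% in mesoderm. Among the 9, Ttr, Apob and Apom are limited in the other classes by the gate itself. Ttr gave the lower end in erythroid cells and mesoderm. The upper ends came from Cubn, Afp and Apoa4 in this order of classes, all markers outside the gate. Of the 24 members highest in endoderm, 6 were at or under the upper end of this range in erythroid cells (Slc2a2, Slc5a11, Slc16a11, Slc16a9, Slc39a4 and Slc39a5), 2 in endothelium (Slc7a9 and Slc39a5) and 3 in mesoderm (Slc2a2, Slc7a8 and Slc7a9). For these, expression in the named class cannot be told apart from that low level. Slc3a2 stood far above it at 42.2%, 37.8% and 30.5%, and Slc2a3 stood at 2.49%, 4.21% and 11.3%.

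**Figure D5:**
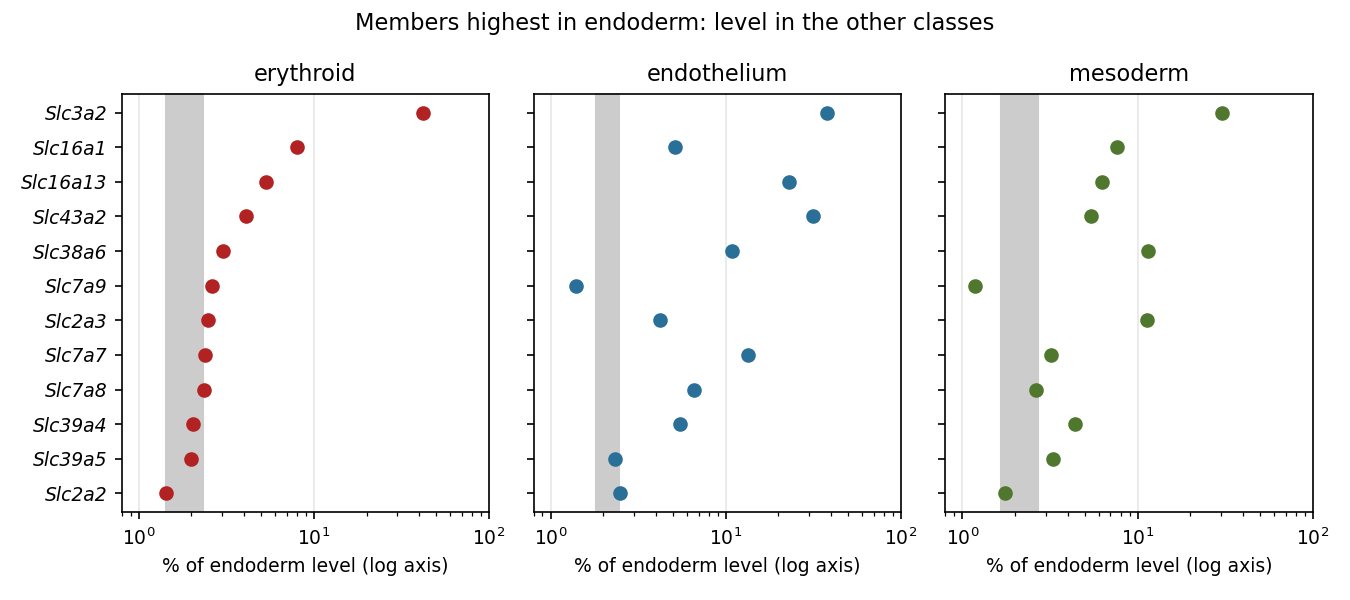
Mean level of 12 carriers highest in endoderm, as a percent of their endoderm level (log axis), in erythroid cells, endothelium and mesoderm. The grey band is the range of 9 endoderm marker genes in the same class (1.44% to 2.34%, 1.83% to 2.46% and 1.66% to 2.70%), and Slc2a2 lies near or within the band in each panel.

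Promoter windows were read for carriers that stood apart in 1 class or were shared by a pair of them. RefSeq windows (GRCm38.p6) from 250 bases before to 50 bases after an annotated start matched 75 of the 99 members, with 93 windows, and 18 of the 23 carriers named by rule. Each was searched on both strands for 4 short motifs. The motif of the GATA factors was AGATAA. For the HNF1 half-site the letters were GTTAAT. An E-box was read as CACGTG. The core of hypoxia response elements was read as ACGTGC, and it overlaps with the E-box in CACGTGC. In this order they occurred in 9.68%, 7.53%, 12.9% and 7.53% of member windows and in 11.2%, 7.10%, 7.15% and 5.91% of all 32851 windows. A match is a description of the letters, not of a bound site. The 6 windows printed below all hold a match and do not stand for the named carriers as a group. Of the other named carriers with a window, Slc7a7, Slc16a1, Slc30a10, Slc38a4 and Slc39a10 had a match in at least 1. Slc2a2, Slc3a2, Slc7a8, Slc38a2, Slc38a6, Slc39a7 and Slc43a2 had none of the 4 motifs.

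Windows of 6 carriers are given 5′ to 3′ along the gene, with matches in capitals. They are those of Slc7a9 (chr7:35448842-35449141, + strand) and Slc39a5 (chr10:128400417-128400716, - strand), both endodermal. The others are Slc2a1 (chr4:119108495-119108794, + strand), highest in mesoderm, Slc16a3 (chr11:120948817-120949116, + strand), lowest in endoderm, Slc38a5 (chrX:8271131-8271430, + strand), erythroid, and Slc39a8 (chr3:135825407-135825706, + strand), shared by endoderm and erythroid cells.
Slc7a9: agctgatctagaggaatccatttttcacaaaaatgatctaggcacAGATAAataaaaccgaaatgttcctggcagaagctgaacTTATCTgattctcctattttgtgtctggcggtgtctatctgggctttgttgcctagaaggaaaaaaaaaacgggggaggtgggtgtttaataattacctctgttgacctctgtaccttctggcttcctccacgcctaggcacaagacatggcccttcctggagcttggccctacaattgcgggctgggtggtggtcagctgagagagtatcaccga
Slc39a5: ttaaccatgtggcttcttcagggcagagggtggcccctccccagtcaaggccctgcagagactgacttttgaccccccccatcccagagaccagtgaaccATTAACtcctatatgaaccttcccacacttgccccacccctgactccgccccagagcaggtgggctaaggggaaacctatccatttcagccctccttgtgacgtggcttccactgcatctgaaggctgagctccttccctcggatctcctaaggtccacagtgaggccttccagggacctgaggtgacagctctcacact
Slc2a1: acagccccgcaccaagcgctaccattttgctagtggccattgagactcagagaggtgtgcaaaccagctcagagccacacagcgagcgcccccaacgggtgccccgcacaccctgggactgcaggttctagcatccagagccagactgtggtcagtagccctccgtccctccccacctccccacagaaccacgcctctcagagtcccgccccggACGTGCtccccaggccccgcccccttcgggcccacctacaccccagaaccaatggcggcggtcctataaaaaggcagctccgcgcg
Slc16a3: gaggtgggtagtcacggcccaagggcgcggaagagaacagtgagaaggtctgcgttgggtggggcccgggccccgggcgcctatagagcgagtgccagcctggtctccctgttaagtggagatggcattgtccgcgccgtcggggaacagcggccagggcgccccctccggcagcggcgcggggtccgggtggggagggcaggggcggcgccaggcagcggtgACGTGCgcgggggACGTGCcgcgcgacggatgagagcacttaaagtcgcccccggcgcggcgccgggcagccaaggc
Slc38a5: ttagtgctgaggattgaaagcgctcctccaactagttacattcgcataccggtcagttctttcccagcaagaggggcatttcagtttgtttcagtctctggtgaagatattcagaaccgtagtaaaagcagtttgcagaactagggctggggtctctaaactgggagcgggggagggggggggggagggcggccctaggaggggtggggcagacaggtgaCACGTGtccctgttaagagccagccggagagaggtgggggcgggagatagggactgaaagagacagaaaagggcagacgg
Slc39a8: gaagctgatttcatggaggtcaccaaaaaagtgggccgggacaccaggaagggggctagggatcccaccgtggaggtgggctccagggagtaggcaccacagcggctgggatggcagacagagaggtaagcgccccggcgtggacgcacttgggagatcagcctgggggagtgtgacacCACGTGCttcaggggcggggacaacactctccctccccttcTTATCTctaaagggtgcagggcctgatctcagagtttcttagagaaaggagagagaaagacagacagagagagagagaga

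The Slc7a9 window held AGATAA on each strand, starting 205 and 166 bases before the start site, and the Slc39a5 window held the HNF1 half-site 150 bases before it. Slc16a3 had 2 matches to ACGTGC, 27 and 14 bases before its start, and Slc2a1 had 1 at 36 bases. Slc38a5 held CACGTG 30 bases before its start. Slc39a8 held CACGTGC at 71 bases and AGATAA on the other strand at 30 bases, while the other window of Slc39a8 held none of the 4. The other window of Slc7a9 and that of Slc39a5 held none of the 4 either. Of the 27 windows of members highest in endoderm, 3 held AGATAA (11.1%, beside 11.2% of all windows). These came from Slc7a9 and from overlapping windows of Slc7a7 that share the same site. Of the 27, 2 held GTTAAT, 3 held CACGTG and 0 held ACGTGC (7.41%, 11.1% and 0, beside 7.10%, 7.15% and 5.91%). Of the 5 windows of members highest in erythroid cells, 2 held CACGTG, 1 held ACGTGC and 0 held AGATAA or GTTAAT. These 5 are too few to set against the shares of all windows.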

How the data were processed

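Values are the authors' deposited UMI counts of each gene and cell, not normalized. Per the file headers they come from Cell Ranger 6.1.2, and the submitters' processing notes name GRCm38 and mm10. The rule that assigned cells to tags was not stated. Counts were summed per class and tagged sample and compared, 2 classes per fit, with edgeR 4.0.16 (TMM scaling, filterByExpr, glmQLFit, glmQLFTest) on R 4.3.3. The members and lists were chosen with earlier results of these data known.

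Carriers named by rule had a mean of at least 40 UPM in a class and a difference that qualified in at least 1 comparison. A qualifying difference had an adjusted p under 0.05, an absolute log2 value of at least 1 and 1 direction in all 3 samples. This gave 23, some of which are described by means and ranges only. Others are named where a count of 5 or fewer or a carrier's partner needed it, or were chosen after their values were seen (in families 1, 5, 16, 30, 38, 39 and 43). Cells in 2 classes were dropped, and Scrublet in scanpy 1.11.5 served as an alternative. Same-numbered sums come from the same tagged sample, so the numbers pair them; their deviations correlated across genes by 0.0069 to 0.16. On simulated data, 92% of genes changed 2-fold were recovered among 10864 run for endoderm against erythroid cells, with 6 false calls. For endoderm against endothelium it was 67.3% among 10398, with 6. The simulated counts had the same fixed spread for every gene and no difference between tagged samples other than depth. Only genes above a count limit were changed. These figures therefore do not give the recovery or the error in the real sums. Alternatives covered scaling, DESeq2 1.42.0, filters, gates, doublets, depth, globins, pairing and each sample left out. Reporter transcripts were not analysed here.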

Additional observations from a re-analysis of the deposited data

How the results depend on the processing

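Each total of members or genes called in either direction stayed within 1.5 times its main value under the alternatives run. By direction, 4 counts did not: members lower in mesoderm than in endothelium went from 13 to 8 without tagged sample 3, all genes higher in erythroid cells went from 3235 to 1637 against mesoderm and from 2951 to 1778 against endothelium with library size scaling, and all genes higher in endoderm than in endothelium went from 3415 to 2267 with thinned sums. Of 1594 recomputed values for the 101 called differences of the named carriers, 1563 kept direction and call, 30 kept direction only (13 differences) and 1 turned: Slc2a3 in erythroid cells against endothelium, 0.12 with doubled gate thresholds. With the replicate block, members called were 52, 46, 41, 33, 32 and 23 in the 6 comparisons, and besides the changes given for Slc2a1, Slc39a8, Slc7a1 and Slc38a4 the pairing changed no other call of a member. Scaling by library size alone shifted the median log2 difference of all genes by 0.21 for endoderm minus erythroid cells, -0.13 for endoderm minus endothelium, -0.24 for endoderm minus mesoderm, -0.32 for erythroid cells minus endothelium, -0.42 for erythroid cells minus mesoderm and 0.12 for mesoderm minus endothelium. The share of all calls that were higher in the first class then moved from 52.0% to 37.6% in endoderm against mesoderm, from 48.3% to 30.4% and from 46.9% to 24.0% in erythroid cells against endothelium and mesoderm, and from 44.9% to 58.0% in mesoderm against endothelium. UPM levels are scaled by library size alone, while the tests used TMM scaling. The 2 can therefore differ, which matters most for small differences of erythroid cells. Endothelium, with 115 cells, and carriers under 50 UMIs set the limits of depth.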

Other observations

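The 188 cells that met no gate were left out of the comparisons. In them Slc16a3 averaged 108 ± 21.9 UPM (SD, n = 3 tagged samples; 927 UMIs), and lay above all 4 classes in each tagged sample. Slc5a5, a sodium-coupled iodide carrier, averaged 3.98 ± 3.30 from 39 UMIs and was also above the 4 classes in each sample. Slc38a1 and Slc38a2 averaged 75.4 ± 18.1 and 109 ± 18.2, above the 4 classes in 2 of 3 samples.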
